A study of Mus musculus with 12 samples.

Results

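The vascular endothelial growth factor (VEGF) ligands Vegfa, Vegfb, Vegfc and Pgf and the VEGF receptors Flt1, Kdr, Nrp1 and Nrp2 were measured in whole lungs of newborn Foxf1+/- mice and wildtype mice. Every probe whose array annotation named 1 of these 8 genes was taken, which gave 19 probes out of the 45263 with intact values, and 8 genes out of the 19057 with an annotated probe. 1 further probe, annotated to several symbols, was not counted. The arrays carried 3 probes for Vegfa, 1 each for Vegfb, Vegfc and Pgf, 2 each for Flt1 and Kdr, 3 for Nrp1 and 6 for Nrp2. The series held 12 whole-genome Illumina bead arrays (MouseWG-6 v2.0), each hybridised with RNA of a single lung, from 6 Foxf1+/- and 6 wildtype littermate mice on a 129/C57BL6/J mixed background at postnatal day 0.5, with no treatment. Foxf1+/- mice carry 1 Foxf1 allele without exon 1, which encodes the DNA-binding forkhead domain, and without part of the promoter. The deletion came from EIIa-Cre, which acts in many tissues and in germ cells, so that it is not limited to a lung cell type. Wildtype mice carry both alleles intact. Foxf1 is a transcription factor of the lung mesenchyme and of its capillary endothelium.

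Vegfa is the main growth factor of blood vessel endothelium and binds the receptor tyrosine kinases Flt1 (VEGFR1) and Kdr (VEGFR2). Kdr carries most of the growth signal, while Flt1 binds Vegfa tightly with weak kinase activity, and its soluble form traps ligand. Pgf and Vegfb bind Flt1 and not Kdr, Vegfc acts mainly on the lymphatic receptor Flt4, and the neuropilins Nrp1 and Nrp2 are co-receptors that also bind class 3 semaphorins. In the lung, epithelium is a major source of Vegfa and the alveolar capillaries depend on it.

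Because Foxf1 is a DNA-binding factor, the sequence before the start of the 2 member ligand genes with the largest measured differences, Pgf and Vegfa, and of both receptor tyrosine kinase genes is shown, as 250 bases upstream of the RefSeq start on mouse build GRCm38.p6, in the direction of the gene. Capitals mark GC boxes (GGGCGG or CCGCCC) and, in Flt1, a TATA box (TATAAA). None of the marked letters overlapped another motif.
Pgf, chr12:85177314-85177563, minus strand: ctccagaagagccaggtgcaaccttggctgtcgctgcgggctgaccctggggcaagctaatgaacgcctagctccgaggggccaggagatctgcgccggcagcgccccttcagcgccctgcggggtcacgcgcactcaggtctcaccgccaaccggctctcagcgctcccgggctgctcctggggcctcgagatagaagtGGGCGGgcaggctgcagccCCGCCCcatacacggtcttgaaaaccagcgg
Vegfa, chr17:46032378-46032627, minus strand: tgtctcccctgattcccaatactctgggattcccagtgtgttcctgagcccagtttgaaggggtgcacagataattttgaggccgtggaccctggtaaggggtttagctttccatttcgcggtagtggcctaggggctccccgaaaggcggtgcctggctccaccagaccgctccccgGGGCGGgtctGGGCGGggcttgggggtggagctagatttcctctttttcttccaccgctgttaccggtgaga
Flt1, chr5:147726012-147726261, minus strand: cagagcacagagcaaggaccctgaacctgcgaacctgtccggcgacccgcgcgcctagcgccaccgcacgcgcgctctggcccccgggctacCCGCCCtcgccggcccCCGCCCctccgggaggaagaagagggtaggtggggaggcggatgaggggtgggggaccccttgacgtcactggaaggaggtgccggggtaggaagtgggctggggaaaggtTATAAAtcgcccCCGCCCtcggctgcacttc
Kdr, chr5:75978456-75978705, minus strand: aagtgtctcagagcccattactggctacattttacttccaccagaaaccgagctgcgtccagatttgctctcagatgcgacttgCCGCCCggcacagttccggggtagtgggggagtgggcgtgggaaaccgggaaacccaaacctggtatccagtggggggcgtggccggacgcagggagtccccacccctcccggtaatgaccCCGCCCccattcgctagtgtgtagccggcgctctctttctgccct
The 8 genes had 10 such windows, with a second start for Vegfa and for Pgf. On either strand, a GC box stood in 9 of the 10, against 32.7% of 32851 mouse windows of this length. TATAAA stood in 1, 31 bases before the start of Flt1, against 12.4%. The letters ACGTG, 1 form of the core of hypoxia response elements, stood only in the window of the second Vegfa start, against 16.6%. That window (chr17:46025164-46025413, minus strand) lies downstream of the first Vegfa start and so not before the gene. The other form of this core, GCGTG, was not counted. It stands, on either strand, in the Pgf, Flt1 and Kdr windows shown. The forkhead letters GTAAACA stood in 0 of the 10, against 3.17% of all windows. These counts describe letters in 250 bases and give no binding.

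Signals were put on a common log2 scale, on which 1 unit is a doubling. Values near 6 lie at the floor of the arrays, where a probe shows little beyond background, and a mean at or under 6.56 was called near the floor. 11 of the 19 probes lay above it. Foxf1+/- and wildtype lungs were compared with limma, with the array experiment as a second term, and a probe was called at a Benjamini-Hochberg adjusted p under 0.05 over all 33947 probes that passed a filter on low signal. The 2 array experiments that the study describes are not named in the labels and were inferred from raw brightness. Experiment A held Foxf1+/- replicates 1 to 4 and wildtype replicates 1 and 2, with raw medians of 72.8 to 89.3. Experiment B held Foxf1+/- replicates 5 and 6 and wildtype replicates 3 to 6, with raw medians of 57.3 to 62.6.

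Foxf1 itself was read first. Its probe gave a lowest, median and highest log2 signal of 9.999, 11.001 and 11.35 in Foxf1+/- lungs and of 11.08, 11.58 and 12.02 in wildtype lungs. The genotypes overlapped over all 12 arrays but not within either experiment. The fitted log2 fold change was -0.999 ± 0.131 (SE, n = 6 each, limma adjusted p = 0.00224), and an exact permutation of genotypes within experiments gave a two-sided p of 0.00444, the smallest its 225 arrangements allow. Without the experiment term the call was lost (-0.73, limma adjusted p = 0.184). Whether this probe lies outside the deleted exon is not known here.

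Whole lung RNA mixes many cell types, so that fewer cells of a type and less RNA per cell cannot be told apart in any value below. Markers of general endothelium had a mean log2 signal of 11.34 to 11.73 in Foxf1+/- lungs and 11.34 to 11.75 in wildtype lungs, with 1 of 12 called higher (Emcn) and 1 lower (Cldn5). Squamous epithelium markers, which belong to tissue other than lung parenchyma, summed to a signal of 1497 to 7270.4 in Foxf1+/- lungs and of 1440.4 to 14583 in wildtype lungs, and 0 of 7 tested were called. Their mean log2 signal was low, at most 7.01, in Foxf1+/- replicates 1, 2, 3 and 5 and in wildtype replicate 6, and at least 8.38 on the other arrays. Heart and skeletal muscle markers summed to 6037 to 56106 in Foxf1+/- lungs and to 4301 to 55290.4 in wildtype lungs, with 0 of 6 called. T and NK cell markers stood apart in wildtype replicate 5, with a mean log2 signal of 8.88 against 6.54 to 6.65 in the Foxf1+/- lungs and 6.55 to 6.66 in the other wildtype lungs. Other marker lists differed between the 2 genotypes in called genes or in summed signal. Over all tested genes, 3.61% were called. Of 8 neutrophil markers 1 was lower, and of 8 fibroblast markers 1 was higher. Mast cell markers had a mean log2 signal of 9.03 to 9.35 in Foxf1+/- lungs and of 7.54 to 7.88 in wildtype lungs, and of 8 tested 6 were higher, such as Cma1 (2.61, limma adjusted p = 6.66e-07), and 1 lower (Kit). Of 9 tested capillary endothelium markers, 3 were lower (Car4, Ednrb and Ptprb) and 1 higher (Gpihbp1). Lymphatic markers summed to 8401 to 11703 in Foxf1+/- lungs and 12537 to 16725 in wildtype lungs, with 4 of 7 lower. Erythroid markers summed to 37636 to 51295 in Foxf1+/- lungs and 53175 to 60718 in wildtype lungs, with 0 of 4 called. Platelet markers summed to 1870 to 2374 in Foxf1+/- lungs and 2383 to 2978 in wildtype lungs, with 0 of 8 called. Smooth muscle and pericyte markers summed to 29992 to 31800 in Foxf1+/- lungs and 17653 to 29211 in wildtype lungs, with 0 of 8 called. None of these 4 sums overlapped between genotypes. Of single tested probes 1.72% did not overlap, and no such share was computed for sums. The mean log2 signal of the smooth muscle and pericyte list did overlap, with 9.32 to 9.81 in Foxf1+/- lungs and 9.01 to 9.77 in wildtype lungs. Of its 8 markers, 3 had a positive and 5 a negative fold change, with a median of -0.10 on the log2 scale. That of the erythroid list also overlapped, with 9.84 to 10.67 in Foxf1+/- lungs and 10.54 to 10.80 in wildtype lungs. The part of these markers in the results was not tested beyond the fits given beside them.

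No VEGF ligand or receptor probe passed the test between genotypes. Of the 19 probes, 15 passed the filter and were tested, and limma called 0 of the 15, against 2.97% of all tested probes (592 higher and 415 lower). 3 of the 15 had an unadjusted p under 0.05, those of Pgf, Vegfa (ILMN_2484527) and Flt1 (ILMN_2732721), against 16.5% of all probes. On the authors' processed values, the methods' t-test also called 0 of the 15 after Benjamini-Hochberg adjustment. 9 fold changes were positive and 6 negative, with a median of 0.01 on the log2 scale beside 0.00 over all tested probes. In no tested member probe did the 2 genotypes stay apart over the 12 arrays, which 1.72% of all tested probes did. Taking the brightest probe as the main probe of each gene, 0 of the 8 genes were called, against 3.61% of 15653 genes.

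**Figure D1:**
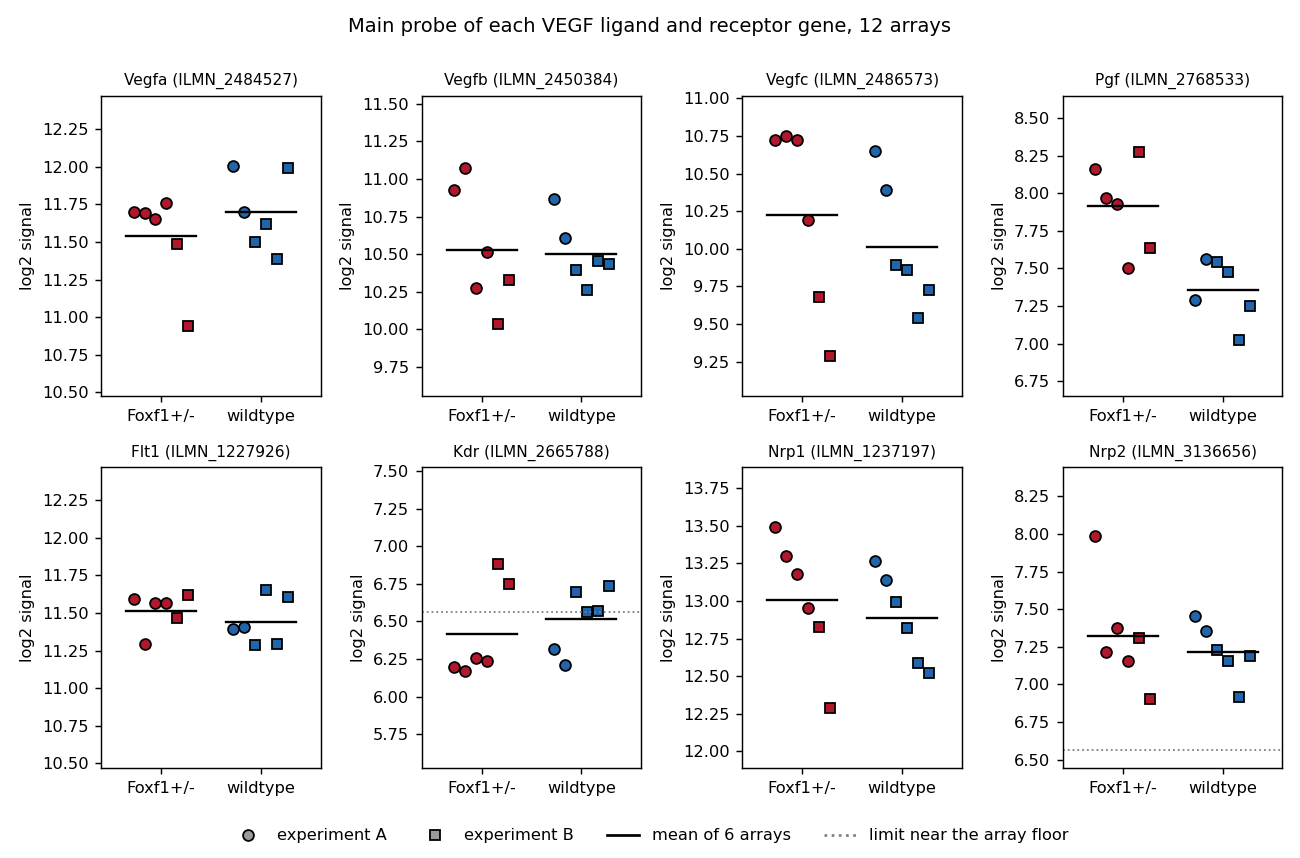
Log2 signal of the main probe of each of the 8 genes on every array, with Foxf1+/- lungs left and wildtype lungs right, circles for experiment A, squares for experiment B, a bar at the mean of 6 arrays and a dotted line at the limit near the array floor (6.56). Every panel spans the same range of log2 units. Pgf is the gene whose genotypes lie farthest apart, with means of 7.91 in Foxf1+/- lungs and 7.36 in wildtype lungs. In Vegfc and Kdr the arrays split by experiment, for Kdr near the floor and, on the raw scale, only relative to the median of each array.

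Pgf, placental growth factor, had the largest difference of the 4 member ligands. Its probe (ILMN_2768533) read 8.16, 7.97, 7.93, 7.50, 8.27 and 7.64 in Foxf1+/- replicates 1 to 6. It read 7.29, 7.56, 7.54, 7.48, 7.03 and 7.25 in wildtype replicates 1 to 6. Foxf1+/- replicates 1, 2, 3, 5 and 6 lay above every wildtype lung, and Foxf1+/- replicate 4 lay below wildtype replicates 2 and 3. The log2 fold change was 0.55 ± 0.15 (SE, n = 6 each), a 1.46-fold higher signal with a 95% interval of 1.17 to 1.83, and limma's adjusted p of 0.0691 missed the threshold. Within experiments the difference was 0.47 in A and 0.63 in B. As a single value, an exact two-sided permutation of genotypes within experiments gave p = 0.00889, where 0.00444 is the smallest p possible, without adjustment for the other probes. Pgf was the member with the smallest limma p, and the permutation used the same arrays, so that it adds no separate evidence.

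The 2 Foxf1+/- lungs with the lowest Pgf, replicates 4 and 6, were also the 2 Foxf1+/- lungs with high squamous markers. Among wildtype lungs the order was mixed. Wildtype replicate 6, the only 1 with low squamous markers (6.75), had the second lowest Pgf (7.25). Wildtype replicate 5, with the highest squamous level (9.84), had the lowest Pgf (7.03). Wildtype replicates 1 to 4 had squamous levels of 8.89, 8.64, 8.72 and 8.38 beside Pgf of 7.29, 7.56, 7.54 and 7.48. Without Foxf1+/- replicate 4 the Pgf log2 fold change was 0.61 and its limma adjusted p was 0.0346. With the squamous marker level as a covariate, the fold change was 0.39 (limma adjusted p = 0.128), and with the muscle marker level it was 0.55 (limma adjusted p = 0.0640). Pgf was also called with array weights (limma adjusted p = 0.0389) and when only probes above the median signal were tested (limma adjusted p = 0.0489).

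The 5 genes whose main probe ran most like Pgf over the 12 arrays, with the mean of each genotype in each experiment taken out, were Rgs4 (Pearson r = 0.97), Pkmyt1 (0.96), Zmat2 (0.96), Kctd15 (0.94) and Nelfcd (0.94), out of 15645 candidates. All points share the same 12 lungs, and none of the 5 was called between genotypes. Kctd15 and Nelfcd kept r of 0.93 and 0.87 with the group means left in, whereas Rgs4 had 0.04.

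Vegfa was read by 2 bright probes that differed in their change. The probe ILMN_2484527 read 11.70, 11.69, 11.65, 11.76, 11.48 and 10.94 in Foxf1+/- replicates 1 to 6. It read 12.01, 11.70, 11.50, 11.62, 11.39 and 11.99 in wildtype replicates 1 to 6. Foxf1+/- replicate 6 was lower than every other lung, and the rest overlapped. Its log2 fold change was -0.28 ± 0.12 (SE, n = 6 each, unadjusted p = 0.0397 and adjusted p = 0.270 by limma), with -0.15 in experiment A and -0.41 in B. Without Foxf1+/- replicate 6 the change was -0.15. With the squamous marker level as a covariate it was -0.44 and passed the test (limma adjusted p = 0.0268).

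The second bright Vegfa probe, ILMN_3121255, gave a lowest, median and highest signal of 10.74, 11.36 and 11.72 in Foxf1+/- lungs and of 11.08, 11.16 and 11.47 in wildtype lungs. The Foxf1+/- lungs spread on both sides of the wildtype lungs, with 0.20 in experiment A and -0.22 in B, and a fitted log2 fold change of -0.01 ± 0.15 (limma adjusted p = 0.987). The log2 difference between the 2 probes on the same array, ILMN_2484527 minus ILMN_3121255, had a lowest, median and highest value of -0.02, 0.21 and 0.78 in Foxf1+/- lungs and of 0.26, 0.48 and 0.71 in wildtype lungs. It was 0.28 lower in Foxf1+/- lungs, which did not pass (exact permutation p = 0.08, or 0.289 adjusted over the 5 probe pairs compared). The probes correlated over the 12 arrays with r = 0.61, and with r = 0.56 after the group means were taken out. The remaining Vegfa probe, ILMN_3045723, stayed at the floor, with 5.88 to 6.03 in Foxf1+/- lungs and 5.80 to 6.10 in wildtype lungs, and was not tested.

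**Figure D2:**
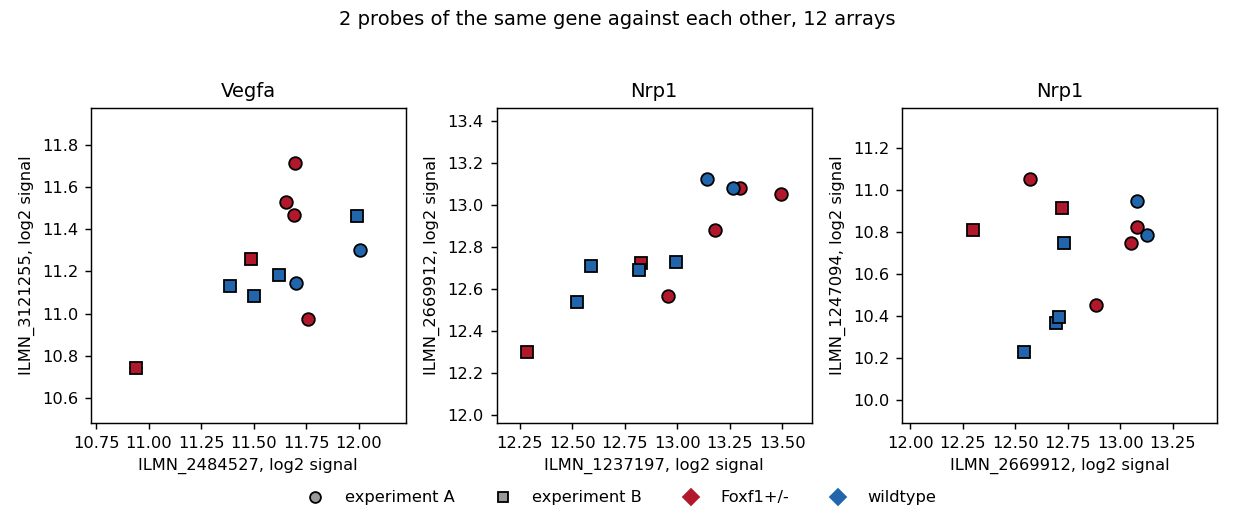
Each panel plots 2 probes of the same gene against each other, as log2 signal on the 12 arrays, with red for Foxf1+/- and blue for wildtype lungs, circles for experiment A and squares for experiment B. The pair of Nrp1 in the middle runs together (r = 0.89), the Vegfa pair less so (r = 0.61), and the Nrp1 pair on the right does not (r = 0.21).

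Vegfb, which binds Flt1, and Vegfc, the lymphatic growth factor, were each read by 1 bright probe. Vegfb gave a lowest, median and highest signal of 10.04, 10.42 and 11.07 in Foxf1+/- lungs and of 10.26, 10.45 and 10.87 in wildtype lungs. Its log2 fold change was -0.12 ± 0.13 (SE, n = 6 each, 95% interval -0.41 to 0.17, limma adjusted p = 0.728). Vegfc gave 9.29, 10.46 and 10.75 in Foxf1+/- lungs and 9.54, 9.88 and 10.65 in wildtype lungs. Its higher Foxf1+/- median went with experiment, since all 6 arrays of experiment A read 10.19 or more and all 6 of experiment B 9.89 or less. With experiment in the fit, the log2 fold change of Vegfc was -0.10 ± 0.13 (95% interval -0.38 to 0.18, limma adjusted p = 0.780), and without it 0.21 (limma adjusted p = 0.756).

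Flt1 and Kdr are the receptor tyrosine kinases of the group. The bright Flt1 probe, ILMN_1227926, gave a lowest, median and highest signal of 11.30, 11.57 and 11.62 in Foxf1+/- lungs and of 11.29, 11.40 and 11.65 in wildtype lungs. The ranges nearly coincided, and the log2 fold change was 0.09 ± 0.08 (SE, n = 6 each, 95% interval -0.09 to 0.28, limma adjusted p = 0.664). The dimmer Flt1 probe, ILMN_2732721, read 7.13, 7.22 and 7.31 in Foxf1+/- lungs and 6.83, 7.12 and 7.20 in wildtype lungs. Its log2 fold change was 0.17 ± 0.07 (unadjusted p = 0.0230 and adjusted p = 0.208 by limma), positive in experiment A (0.20) and in B (0.13). Without wildtype replicate 2, the lowest lung on this probe, it was 0.092 (limma adjusted p = 0.483). The log2 difference between the 2 Flt1 probes changed by -0.08 (exact permutation p = 0.462, and 0.462 adjusted over the 5 pairs), and after removal of the group means they correlated with r = 0.11.

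Kdr, the main signalling receptor of VEGF, could not be followed well on this array. Its brighter probe, ILMN_2665788, averaged 6.47, near the floor. It read 6.17 to 6.88 in Foxf1+/- lungs and 6.21 to 6.74 in wildtype lungs. The 6 arrays of experiment A lay at 6.17 to 6.32 and the 6 of experiment B at 6.56 to 6.88, with no overlap. On the raw scale, before background correction, this probe read 64.3 to 85.3 in Foxf1+/- lungs and 63.2 to 75.8 in wildtype lungs, where the array medians were 57.3 to 89.3. By experiment its raw signal overlapped, with 63.2 to 78.7 in A and 67.7 to 85.3 in B. The arrays of A were brighter, with raw medians of 72.8 to 89.3 against 57.3 to 62.6 in B. Against the raw median of its own array, the probe lay below on every array of A and above on every array of B. The split was thus already present in raw signal relative to array brightness. The log2 fold change was 0.06 ± 0.06 (95% interval -0.07 to 0.20, limma adjusted p = 0.692), and the offset used in background correction damps changes at such signal. The other Kdr probe, ILMN_2572649, read 5.96 to 6.13 in Foxf1+/- lungs and 5.82 to 6.14 in wildtype lungs and was not tested.

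**Figure D3:**
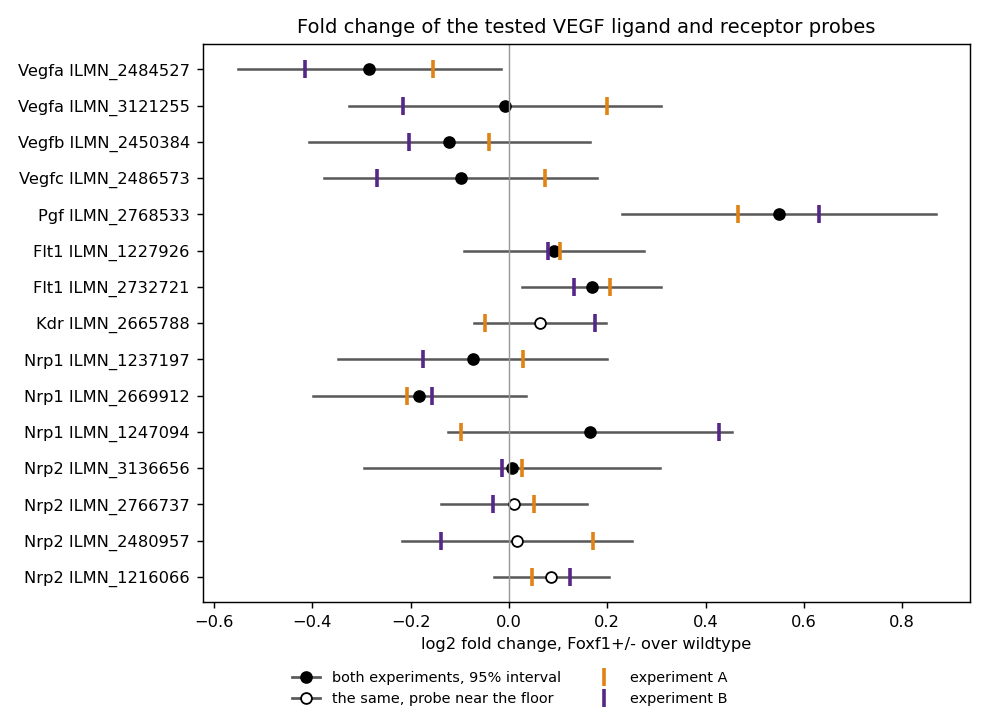
Log2 fold change, Foxf1+/- over wildtype, of the 15 tested probes (points, open where the probe is near the floor) with 95% intervals from limma, and the differences of group means within experiment A (orange) and experiment B (purple). Pgf lies farthest to the right (0.55, interval 0.23 to 0.87), and in Vegfa ILMN_3121255, Vegfc, Kdr and several neuropilin probes the experiments lie on opposite sides of 0.

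The co-receptor Nrp1 was bright on 3 probes, and none was called. ILMN_1237197 gave a lowest, median and highest signal of 12.29, 13.07 and 13.49 in Foxf1+/- lungs and of 12.52, 12.91 and 13.27 in wildtype lungs, with a log2 fold change of -0.07 ± 0.13 (limma adjusted p = 0.842). ILMN_2669912 gave 12.30, 12.80 and 13.08 in Foxf1+/- lungs and 12.54, 12.72 and 13.13 in wildtype lungs, with -0.18 ± 0.10 (limma adjusted p = 0.407). These 2 probes ran together over the arrays (r = 0.89, and 0.84 with group means out), lowest in Foxf1+/- replicate 6 on both.

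The third Nrp1 probe, ILMN_1247094, which the annotation ties to a cDNA clone and not to the RefSeq transcript of the other 2, gave 10.46, 10.82 and 11.06 in Foxf1+/- lungs and 10.23, 10.57 and 10.95 in wildtype lungs. Its log2 fold change was 0.16 ± 0.13 (limma adjusted p = 0.609). In experiment A it was -0.10 and in B 0.43, where both Foxf1+/- lungs (10.92 and 10.81) lay above the 4 wildtype lungs (10.23 to 10.75). This difference between experiments had an unadjusted p of 0.0434 and an adjusted p of 0.999 by limma. Over all probes, 0% passed such a test after adjustment and 3.36% had an unadjusted p under 0.05, and of the 15 member probes 0 passed and 1 had an unadjusted p under 0.05. With ILMN_2669912 the probe correlated at r = 0.21, and the log2 difference ILMN_2669912 minus ILMN_1247094 changed by -0.35 (exact permutation p = 0.116, or 0.289 adjusted over the 5 pairs).

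Nrp2, a co-receptor of veins and lymphatics, was dim on all 6 probes. Only ILMN_3136656 lay above the floor limit, with 6.90, 7.26 and 7.99 as the lowest, median and highest signal in Foxf1+/- lungs and 6.92, 7.21 and 7.46 in wildtype lungs. Foxf1+/- replicate 1 was the highest lung, and the other lungs overlapped. Its log2 fold change was 0.01 ± 0.14 (SE, n = 6 each, limma adjusted p = 0.989). The 3 other tested Nrp2 probes, near the floor, had fold changes of 0.01, 0.02 and 0.09 on the log2 scale, with limma adjusted p between 0.479 and 0.967, and 2 more stayed under the filter.

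More of these probes differed between the array experiments than between the genotypes, as held over all tested probes (42.2% against 2.97%). Experiment B differed from A on 7 of the 15 probes by limma, against 42.2% of all probes, with 6 lower in B. That of Kdr was higher in B, near the floor, with raw signals that overlapped but lay below the array median in A and above it in B. Vegfc was 0.94 lower in B on the log2 scale, Nrp1 ILMN_1237197 was 0.57 lower and ILMN_2669912 0.41 lower, and Vegfb was 0.43 lower. Pgf differed by -0.02 between experiments (limma adjusted p = 0.930). Since experiment A held 4 Foxf1+/- and 2 wildtype lungs and experiment B the reverse, raw means per genotype carry this difference.

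The remaining VEGF ligand and receptor tyrosine kinase on the array were read as a comparison. Vegfd, a ligand of lymphatic endothelium made by lung mesenchyme, gave a lowest, median and highest signal of 10.53, 11.47 and 11.83 in Foxf1+/- lungs and of 9.30, 9.98 and 11.44 in wildtype lungs. Within experiment B both Foxf1+/- lungs (10.53 and 10.65) lay above the 4 wildtype lungs (9.30 to 10.01), and within A the genotypes overlapped. The log2 fold change was 0.62 ± 0.17 (SE, n = 6 each), and limma's adjusted p of 0.0729 missed the threshold, which it passed without Foxf1+/- replicate 2 (0.70, limma adjusted p = 0.0206). Flt4, the lymphatic VEGF receptor, had -0.17 ± 0.10 on its brightest probe (limma adjusted p = 0.438). Its probes near the floor had -0.18 (ILMN_2662229, limma adjusted p = 0.336) and 0.04 (ILMN_1219072, 0.853). Of the 7 lymphatic marker genes, a list that includes Flt4, 4 were called lower, such as Lyve1, and 0 higher.

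Other genes of the pathway were counted on lists chosen with earlier results of these data known, beside 1.82% of genes called higher and 1.79% called lower over the whole array. Of 34 tested genes that carry the signal of VEGF receptors inside the cell, 0 were called and 9 had an unadjusted p under 0.05 by limma, with a median log2 fold change of 0.01. Nos3, endothelial nitric oxide synthase, had 0.34 ± 0.09 (limma adjusted p = 0.0637), Hspb1 0.67 ± 0.18 (0.0696) and Prkca 0.35 ± 0.13 (0.174). Nos3 and Hspb1 each passed in 4 of 28 alternative fits. Among these were Nos3 without wildtype replicate 5 (limma adjusted p = 0.0418) and Hspb1 without wildtype replicate 3 (limma adjusted p = 0.0462). Sh2d2a, with -0.51 ± 0.41 (0.614), lay near the floor. Of 12 oxygen sensing genes that act upstream of Vegfa, 0 were called and 2 had an unadjusted p under 0.05, and the median was 0.07. Epas1, the HIF-2 alpha subunit, had -0.48 ± 0.14 (limma adjusted p = 0.102), Hif3a 0.74 ± 0.28 (0.199), Hif1a 0.32 ± 0.15 (0.314) and Egln1 0.15 ± 0.13 (0.626). Epas1 passed without wildtype replicate 5 (limma adjusted p = 0.0489), and without the experiment term it was 0.083.

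Of 20 receptor partners and trafficking genes, 2 were lower and 0 higher, with a median log2 fold change of 0.03. Ptprb, the endothelial phosphatase VE-PTP that acts on Kdr and Tie2, averaged 9.87 ± 0.21 in Foxf1+/- lungs and 10.46 ± 0.33 in wildtype lungs (SD, n = 6 each), and fell by 0.70 ± 0.12 (SE, limma adjusted p = 0.0105). That call was lost without the experiment term (limma adjusted p = 0.0702). Myo6, a motor protein that carries internalised receptors, averaged 10.80 ± 0.12 in Foxf1+/- lungs and 11.21 ± 0.12 in wildtype lungs, did not overlap between genotypes, and fell by 0.44 ± 0.07 (limma adjusted p = 0.00865). Among those that did not pass, Ceacam1 had 0.47 ± 0.13 (limma adjusted p = 0.0889), Robo4 0.32 ± 0.10 (0.111), Itgb1 0.32 ± 0.12 (0.193) and Dab2 0.28 ± 0.13 (0.324).

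Of 11 tested genes listed as VEGF antagonists or for binding VEGF in the matrix, 3 were higher and 0 lower, with a median of 0.21 on the log2 scale. Thbs1, thrombospondin 1, averaged 10.32 ± 0.45 in Foxf1+/- lungs and 8.99 ± 0.55 in wildtype lungs (SD, n = 6 each), with no overlap, and rose by 1.08 ± 0.19 (SE, limma adjusted p = 0.00928). Hspg2, the basement membrane proteoglycan perlecan, rose by 0.60 ± 0.11 (limma adjusted p = 0.0140), and its call was lost without Foxf1+/- replicate 6 (limma adjusted p = 0.0626). Adamts1, a secreted protease that binds VEGF, averaged 10.83 ± 0.31 in Foxf1+/- lungs and 9.82 ± 0.44 in wildtype lungs, with no overlap, and rose by 0.87 ± 0.17 (limma adjusted p = 0.0180). Its call was lost without Foxf1+/- replicate 6 (limma adjusted p = 0.0803) or wildtype replicate 1 (limma adjusted p = 0.0671). Ccn2 had 0.26 ± 0.10 (limma adjusted p = 0.184), Col18a1 0.22 ± 0.10 (0.320), Thbs2 0.21 ± 0.17 (0.596) and Dcn -0.08 ± 0.34 (0.943).

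Genes known to be induced by VEGF in endothelium changed in both directions. Of 23 tested, 4 were higher and 3 lower, with a median log2 fold change of 0.06. Dll4, the Notch ligand of arterial and tip cells, gave a lowest, median and highest signal of 6.78, 6.99 and 7.37 in Foxf1+/- lungs and of 7.57, 7.77 and 8.11 in wildtype lungs. The genotypes did not overlap, and Dll4 fell by 0.88 ± 0.11 (limma adjusted p = 0.00165). Pdgfb, the endothelial ligand that recruits pericytes, averaged 12.08 ± 0.21 in Foxf1+/- lungs and 11.19 ± 0.29 in wildtype lungs (SD, n = 6 each), did not overlap, and rose by 0.81 ± 0.13 (limma adjusted p = 0.00637). Adamts1, counted above, and the early growth response gene Egr3 (0.79 ± 0.17, limma adjusted p = 0.0272) also rose, and the Egr3 call was lost without Foxf1+/- replicate 5, Foxf1+/- replicate 6 or wildtype replicate 1 (limma adjusted p = 0.106, 0.0786 and 0.0664). The other 3 called genes were the tip cell gene Esm1 (-1.43 ± 0.32, limma adjusted p = 0.0353), the chemokine receptor Cxcr4 (-0.69 ± 0.16, 0.0356) and, near the floor, the adhesion molecule Sele (0.32 ± 0.07, 0.0290), all named after their values were seen. Sele averaged 6.29 in Foxf1+/- lungs and 5.96 in wildtype lungs, so that only the Foxf1+/- mean lay above the filter limit of 6.01. Of the 21 genes with both means above that limit, 3 were higher and 3 lower. Each of these 3 calls was lost in 9 to 14 of the alternative fits, and without Foxf1+/- replicate 6 the limma adjusted p was 0.133 for Esm1, 0.142 for Cxcr4 and 0.106 for Sele. Angpt2 had -0.50 ± 0.20 (limma adjusted p = 0.229), Adamts9 0.53 ± 0.22 (0.259), Hlx -0.48 ± 0.17 (0.162) and Vcam1 -0.33 ± 0.17 (0.368).

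The class 3 semaphorins compete with VEGF for the neuropilins and signal through plexins. Of 11 tested genes on a list of these semaphorins, plexins and L1cam, 1 was lower and 0 higher, with a median log2 fold change of -0.03. Sema3c averaged 8.36 ± 0.12 in Foxf1+/- lungs and 9.004 ± 0.239 in wildtype lungs (SD, n = 6 each), did not overlap, and fell by 0.68 ± 0.11 (SE, limma adjusted p = 0.00617). Sema3f had -0.51 ± 0.13 (limma adjusted p = 0.0521) and passed in 9 of 28 alternative fits. Among these were the fits without Foxf1+/- replicate 1 (limma adjusted p = 0.0248) or wildtype replicate 5 (0.0265). Of the others that did not pass, Plxna2 had 0.45 ± 0.18 (0.218), Sema3a -0.39 ± 0.15 (0.203) and Sema3b -0.18 ± 0.10 (0.389).

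With the squamous marker level as a covariate, 8 of the pathway genes named above as not passing were called by limma. Ceacam1 (0.64, adjusted p = 0.00589), Robo4 (0.40, 0.0403), Thbs2 (0.47, 0.0354), Hspb1 (0.82, 0.0259) and Plxna2 (0.64, 0.0498) were then higher in Foxf1+/- lungs. Epas1 (-0.68, 0.00327), Hlx (-0.73, 0.00467) and Sema3f (-0.68, 0.00271) were lower. Over all 33947 probes this fit called 2138, against 1007 without the covariate. The genes named as not passing had been picked for the largest uncalled changes in these same data. Squamous levels were low in more Foxf1+/- than wildtype lungs, so that the covariate goes in part with genotype.

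**Figure D4:**
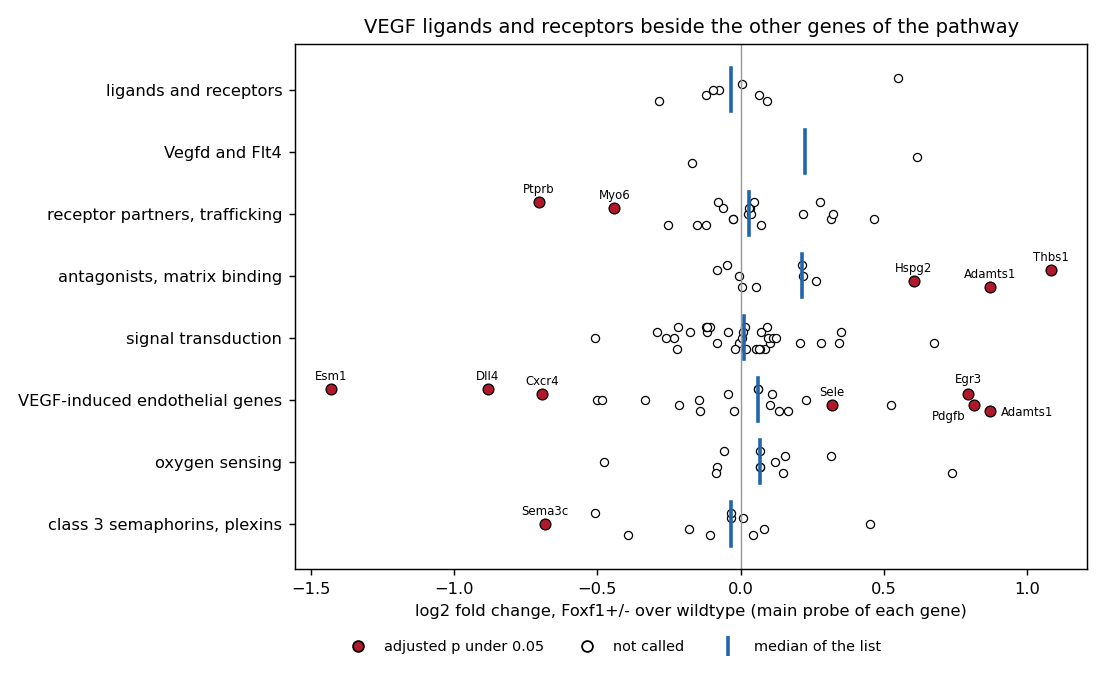
Log2 fold change, Foxf1+/- over wildtype, of the main probe of each tested gene, by list, with filled points for genes called at an adjusted p under 0.05 by limma and a blue line at the median of the list. The 8 ligands and receptors hold no filled point and lie between -0.28 and 0.55, while called genes appear in 4 of the 7 other lists, from Esm1 at -1.43 to Thbs1 at 1.08.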

How the data were processed

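Whole lung RNA of 6 Foxf1+/- and 6 wildtype mice was read on Illumina MouseWG-6 v2.0 arrays. The authors deposited raw signal intensity per probe on a linear scale, not background corrected, and processed log2 values, which per the methods were variance stabilised and robust spline normalised in lumi and corrected for 2 array experiments with ComBat (versions not given in the sources used here). Raw intensity was the starting point, and processed values served as an alternative. 18 damaged probes, none of a member gene, were left out. Background was corrected by normexp with an offset of 50 in limma 3.58.1 under R 4.3.3. Quantile normalisation of the log2 signals followed, and probes with a mean above the 25th percentile were kept. The table holds no detection p-values, so that the planned neqc correction was replaced by normexp.

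The methods name 2 experiments that the labels do not, and they were inferred by 2-means clustering of the arrays on raw signal percentiles (the 5th, 50th and 95th) (mean silhouette 0.71). Limma fitted genotype and experiment, with two-sided tests and Benjamini-Hochberg adjustment over all tested probes. 34874 probes had 1 symbol, 18 several and 10371 none. The brightest probe stood for a gene. Named genes were all probes of the 8 members and, per list, the called genes with the smallest p plus up to 4 others with the largest change. Members, lists and the floor limit (0.5 above the 5th percentile of gene means) were chosen with earlier results of these data known. Steps were tested on simulated data. The number of arrays limits the precision. Alternatives were other background corrections, normalisations, filters, blocks, weights, covariates and single arrays left out.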

Additional observations from a re-analysis of the deposited data

Results flagged for a closer look

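2 values stood apart from the rest of their genotype by Dixon's test, out of 30 groups of 6 arrays examined. Chance would mark about 1 in 20 groups if the arrays of a group had no shift between experiments. The test pooled both experiments, so that this rate does not hold for probes that shift. On the Vegfa probe ILMN_2484527, Foxf1+/- replicate 6 read 10.94 on the log2 scale, below the next Foxf1+/- lung at 11.48 and the highest at 11.76. That lung belongs to experiment B, in which this probe was 0.36 lower (limma adjusted p = 0.0338). On the Flt1 probe ILMN_2732721, wildtype replicate 2 read 6.83, below the next wildtype lung at 7.11 and the highest at 7.20.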

How the results depend on the processing

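28 alternatives were run. The number of member probes called stayed at 0 in 24 and was 1 in 4: Pgf with array weights, with only probes above the median and without Foxf1+/- replicate 4, and Vegfa ILMN_2484527 with the squamous covariate, which like the muscle covariate was chosen after seeing the data. Leaving out 1 array gave 0 to 1 member probes. Over all probes, 1007 were called, against 1579 by the methods' t-test, 501 without the experiment term, 10 in experiment A alone, 56 in experiment B alone, 149 with a replicate block and experiment and 2138 with the squamous covariate. Leaving out 1 array gave 401 (without Foxf1+/- replicate 6) to 1112 (without Foxf1+/- replicate 1), with 446 without Foxf1+/- replicate 5 and 431 without wildtype replicate 1. Scaling in place of quantile normalisation called 758, of which 66.4% were higher. Pgf stayed positive throughout, between 0.39 and 0.73. Of 419 fold changes of member probes, 46 changed sign, none of them called, and the cause was not tested. Without the experiment term, Vegfa ILMN_3121255 was 0.064, Vegfb 0.023, Vegfc 0.21, Kdr -0.10, Nrp1 ILMN_1237197 0.12, Flt4 0.11, Col18a1 -0.050 and Epas1 0.083, and a replicate block without experiment gave the same values. The replicate block with experiment gave Vegfa ILMN_3121255 0.036, Vegfb 0.00018, Vegfc 0.033, Nrp1 ILMN_1237197 0.097, Nrp2 ILMN_2480957 -0.030 and Dcn 0.0015. In experiment A alone, Vegfa ILMN_3121255 was 0.20, Vegfc 0.072, Kdr -0.049, Nrp1 ILMN_1237197 0.028 and Nrp1 ILMN_1247094 -0.097. In experiment B alone, Nrp2 ILMN_3136656 was -0.014, ILMN_2766737 -0.032 and ILMN_2480957 -0.14, and Dcn 0.15. Array weights gave Vegfa ILMN_3121255 0.044 and Nrp2 ILMN_3136656 -0.012. The squamous covariate gave Nrp2 ILMN_3136656 -0.13, ILMN_2766737 -0.025 and ILMN_2480957 -0.079, and Dcn 0.51. With 1 array left out, Vegfa ILMN_3121255 ranged from -0.089 to 0.14, Vegfc from -0.19 to 0.018, Nrp1 ILMN_1237197 from -0.15 to 0.053, Nrp2 ILMN_3136656 from -0.082 to 0.088, ILMN_2766737 from -0.024 to 0.059 and ILMN_2480957 from -0.025 to 0.093, and Dcn from -0.40 to 0.12. Among called pathway genes, only Dll4 and Sema3c lost their calls in no fit but those of a single experiment. Same-numbered lungs share only a number: with experiment taken out, their deviations correlated at 0.15, -0.07, -0.24, 0.05, -0.19 and -0.28 for numbers 1 to 6, and a replicate block without experiment called 724 probes. Signals near the floor limit what can be seen of Kdr, Nrp2 and Sele.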
